A study of Mus musculus with 8 samples.

Results

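The 10 genes described here encode members of the JAK-STAT pathway: the Janus kinases Jak1, Jak2, Jak3 and Tyk2, the transcription factors Stat3, Stat4, Stat5a and Stat5b, and the feedback inhibitors Socs1 and Socs3. They were found by symbol in a table of 18835 genes with values, and all 10 had a value in each of the 8 libraries. The 10 were chosen by symbol with the fold changes and adjusted p-values of the same comparison, VEGF-C against PBS, already known, so their differences between the groups are given as a description, and nothing is rested on them. RNA was sequenced from hearts of 8 male BALB/cAJcl mice aged 10 weeks, all with autoimmune myocarditis after immunization with cardiac myosin. Of these, 4 received VEGF-C C156S, a variant of the growth factor of lymphatic vessels with VEGFR-3 as its receptor, injected into the abdomen at 1 µg per day on days 7 to 10, and 4 received PBS on the same days. The hearts were taken in week 3, and every animal had the disease, so no healthy heart is in the comparison.

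In this pathway a cytokine brings receptor chains together, the kinases bound to those chains phosphorylate each other and the receptor, and STAT proteins that dock there are phosphorylated, pair and enter the nucleus. SOCS genes are among the genes that STAT proteins switch on, and SOCS proteins then bind the receptor or the kinase and damp the signal. Jak1, Jak2 and Tyk2 are made in most cell types, whereas Jak3, which pairs with the common gamma chain of the interleukin receptors, and Stat4, which carries interleukin-12 signals, are known mainly from blood cells. In heart muscle, Stat3 downstream of the receptor gp130 is known for a protective role.

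The series title speaks of cardiac lymphatic endothelial cells, but each sample label gives heart as the tissue, and the marker levels were those of whole heart. Summed over 8 cardiomyocyte markers, levels were between 663300 and 990968 normalised reads per kb of exon, against 6844 to 16703 for 6 lymphatic endothelial markers. In such bulk samples, fewer cells of a type and less RNA per cell cannot be told apart. Read totals over the genes with values were between 61.7 and 76.8 M per library in PBS and between 53.7 and 65.2 M in VEGF-C. The scaling factors of the libraries did not overlap between the groups, at 1.02 to 1.23 in PBS and 0.77 to 0.94 in VEGF-C. PBS replicate 1 stood apart from the other PBS libraries in these genes: it was the highest of the 4 PBS libraries in 8 of the 10 genes, as it was in 28.8% of all genes. The log2 differences of the 10 genes are given with and without it. So are those list medians printed below that move by over 1.5 times or change sign. The replicate numbers are those of the deposited columns and tie to no animal.

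The promoters of the feedback genes are shown because STAT dimers are known to bind the palindrome TTCNNNGAA, and because Socs3, Socs1 and Cish, a further member of the SOCS family, are the feedback genes the results below turn on. The windows come from RefSeq (build GRCm38.p6) and run from 250 bases before to 50 bases after the annotated start. They are written 5′ to 3′, with matches to TTCNNNGAA in capitals. The Socs3 window is chr11:117969317-117969616 on the minus strand, that of Socs1 is chr16:10785487-10785786 on the minus strand, and that of Cish is chr9:107296409-107296708 on the plus strand.
Socs3: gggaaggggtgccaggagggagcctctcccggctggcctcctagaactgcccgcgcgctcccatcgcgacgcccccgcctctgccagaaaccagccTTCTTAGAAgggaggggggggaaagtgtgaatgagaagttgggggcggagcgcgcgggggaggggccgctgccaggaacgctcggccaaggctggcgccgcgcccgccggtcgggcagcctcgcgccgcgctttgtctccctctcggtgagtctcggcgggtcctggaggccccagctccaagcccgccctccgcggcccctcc
Socs1: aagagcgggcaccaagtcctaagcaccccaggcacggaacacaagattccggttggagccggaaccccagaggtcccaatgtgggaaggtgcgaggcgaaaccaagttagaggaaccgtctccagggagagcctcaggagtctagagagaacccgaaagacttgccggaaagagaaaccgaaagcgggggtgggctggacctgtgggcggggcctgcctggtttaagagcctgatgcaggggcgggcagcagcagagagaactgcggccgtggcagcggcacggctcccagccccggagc
Cish: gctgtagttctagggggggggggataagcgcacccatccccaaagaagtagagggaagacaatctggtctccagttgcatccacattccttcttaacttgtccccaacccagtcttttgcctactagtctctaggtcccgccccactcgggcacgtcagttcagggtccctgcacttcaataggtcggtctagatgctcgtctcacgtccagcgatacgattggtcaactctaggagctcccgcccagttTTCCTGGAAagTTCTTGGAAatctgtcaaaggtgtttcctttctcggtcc
The Socs3 window held 1 match, TTCTTAGAA, whose first base lies 154 bases before the start. The Cish window held 2 matches, TTCCTGGAA and TTCTTGGAA, whose first bases are bases 1 and 12 after the start, and the former also fits the stricter form TTCCNGGAA. No match lay in the Socs1 window, which says only that these letters are not in these 300 bases. The motif is its own reverse complement, so a search of one strand covers the other. Of 32817 promoter windows of the same length, 8.29% held TTCNNNGAA and 1.15% held TTCCNGGAA. All 10 genes matched in the RefSeq table, with 13 windows between them, and the Socs3 window was the only 1 of the 13 with a match.

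Jak1 and Stat3 were the most abundant of the 10 transcripts and Stat4 the least. Levels were compared as normalised reads per kb of exon, averaged over the 8 libraries. Jak1 stood at 1652 ± 172 and Stat3 at 1652 ± 177 (SD, n = 8), followed by Socs3 at 867 ± 337, Stat5b at 810 ± 107, Jak3 at 787 ± 271 and Jak2 at 636 ± 77.9. Tyk2 stood at 381 ± 79.0, Stat5a at 258 ± 36.2, Socs1 at 79.8 ± 38.2 and Stat4 at 18.0 ± 6.39. The ranges over the 8 libraries overlapped between all neighbours in this order except 3 pairs: Jak2 lay above Tyk2, Stat5a above Socs1, and Socs1 above Stat4 in every library. The 2 genes of widest relative spread in the upper part of the order were Socs3 and Jak3. Per kb of coding sequence Stat3 and Socs3 came before Jak1, and Stat5a before Tyk2.

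**Figure D1:**
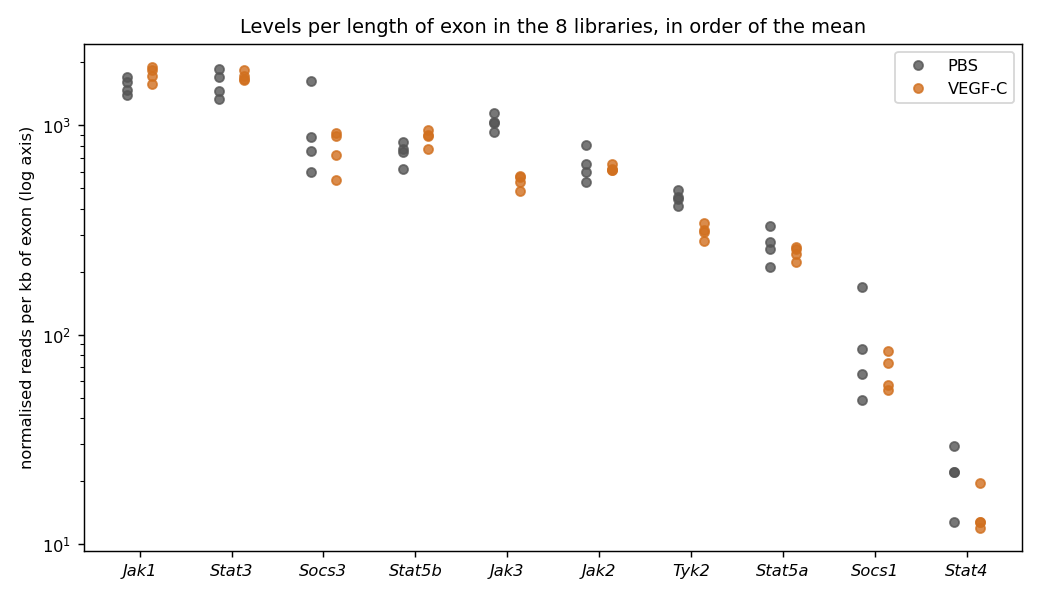
Normalised reads per kb of exon (log axis) of the 10 genes in each of the 8 libraries, in order of the mean over all libraries; grey points are PBS and orange points VEGF-C. Jak1 and Stat3 share a mean of 1652, and Stat4 lies lowest at 18.0.

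Of the 4 kinases, Jak3 and Tyk2 were lower in every VEGF-C library than in any PBS library, while the ranges of Jak1 and Jak2 overlapped. Over all 10 genes these were also the 2 that lay under an adjusted p of 0.05 in limma, both as lower, where 15.7% of all 18835 genes lay under it and 8.61% as lower. As higher, 0 of the 10 were called in limma, against 7.05% of all genes (0 with limma-voom as well; 1, Stat5b, at an unadjusted p under 0.05). Groups that did not overlap were also found in 2 of the 10, against 23.0% of all genes. The median log2 difference of the 10 was -0.18, against 0.00 over all genes, and 0.03 without PBS replicate 1. Since the genes were chosen with these values known, nothing is read from these counts.

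Jak3 (ENSMUSG00000031805), the kinase of the common gamma chain, stood at 6109, 5502, 4955 and 5566 normalised read counts in PBS replicates 1 to 4 and at 3064, 3029, 2597 and 2870 in VEGF-C replicates 1 to 4. The lowest PBS library was above the highest VEGF-C library by a wide margin. The mean was 5533 ± 472 in PBS and 2890 ± 213 in VEGF-C (SD, n = 4), a log2 difference of -0.94 ± 0.08 (SE), or 1.91 times as much in PBS. Without PBS replicate 1 the difference was -0.89 ± 0.09. In GENCODE M21, the gene Insl3 lies on the same strand at the end of Jak3 and shares 404 of its 5352 exon bases (7.55%). Insl3 was itself at 131 normalised counts in PBS and 37.4 in VEGF-C, and the sources used here do not say how reads of the shared bases were assigned.

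Tyk2 (ENSMUSG00000032175), a kinase of the receptors for type I interferon and interleukin-12, stood at 3377, 3112, 2822 and 3057 normalised read counts in PBS and at 2164, 1925, 2116 and 2358 in VEGF-C. All VEGF-C values were below all PBS values. The mean was 3092 ± 228 in PBS and 2141 ± 178 in VEGF-C (SD, n = 4), a log2 difference of -0.53 ± 0.08 (SE) and of -0.49 ± 0.09 without PBS replicate 1. An antisense gene, 1700084C06Rik, for which the table has no values, shares 8.07% of its exon bases.

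Jak1 (ENSMUSG00000028530), which serves the interferon, gp130 and common gamma chain receptors, stood at 12331, 10067, 10659 and 11640 normalised read counts in PBS and at 12435, 11415, 13277 and 13711 in VEGF-C. The groups overlapped, with the upper VEGF-C libraries above all PBS libraries. The log2 difference was 0.19 ± 0.09 (SE), and 0.235 ± 0.089 without PBS replicate 1. It was -0.01 with scaling by library totals, which moved the median of all genes by -0.19. Jak2 (ENSMUSG00000024789), the kinase of the growth hormone, erythropoietin and interferon-gamma receptors, stood at 4052, 2686, 3272 and 3013 in PBS and at 3089, 3066, 3117 and 3290 in VEGF-C. The VEGF-C values lay inside the PBS range and close together. The log2 difference of Jak2 was -0.04 ± 0.11 (SE), and 0.08 ± 0.08 without PBS replicate 1.

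The make-up of the kinase transcripts differed between the groups accordingly. Per kb of exon, Jak3 gave 28.1% ± 1.46 of the summed level of the 4 kinases in PBS and 16.7% ± 1.75 in VEGF-C (SD, n = 4). Jak1 gave 42.1% ± 1.28 in PBS and 54.3% ± 1.99 in VEGF-C. The share of Tyk2 was 12.3% ± 0.69 and 9.63% ± 0.34, and that of Jak2 17.5% ± 1.87 and 19.3% ± 0.51. These shares rest on the same counts as above and are not further evidence.

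**Figure D2:**
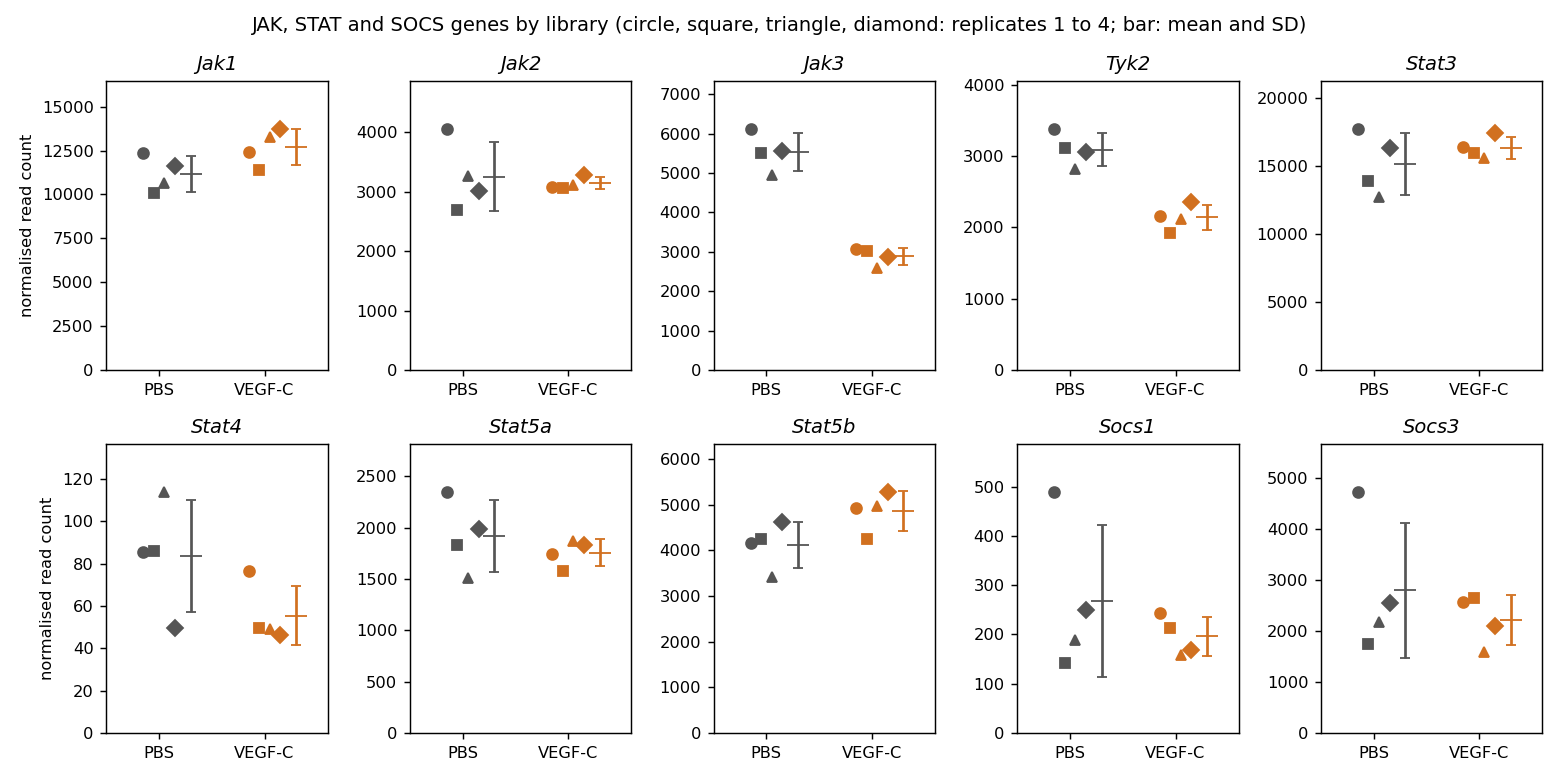
Normalised read counts (linear axis from 0) of the 10 genes in the 4 PBS libraries (grey) and the 4 VEGF-C libraries (orange); marker shapes give the replicate number and bars the mean ± SD. Jak3 and Tyk2 part the groups, and PBS replicate 1 (circle) lies far above the other libraries in Socs1 (490) and Socs3 (4718).

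None of the 4 STAT genes parted the groups. Stat3 (ENSMUSG00000004040), the factor of the interleukin-6 family, stood at 17686, 13898, 12707 and 16280 normalised read counts in PBS and at 16357, 15907, 15600 and 17444 in VEGF-C. The VEGF-C libraries lay within the PBS range, with PBS replicate 1 the highest of all. Its log2 difference was 0.12 ± 0.10 (SE), 0.20 ± 0.10 without PBS replicate 1 and -0.07 with library totals.

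Stat4 (ENSMUSG00000062939) stood at 85.4, 86.1, 114 and 49.4 normalised read counts in PBS and at 76.3, 49.4, 49.3 and 46.4 in VEGF-C. The ranges overlapped. These values rest on 38 to 130 reads per library, the fewest of the 10 genes. The log2 difference was -0.53 ± 0.27 (SE), and -0.51 ± 0.31 without PBS replicate 1. A transcript gene on the same strand, Gm28177, shares 26.7% of the exon bases of Stat4.

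Stat5a and Stat5b, close relatives that carry growth hormone and interleukin-2 signals, lay on either side of 0. Stat5a (ENSMUSG00000004043) stood at 2349, 1833, 1509 and 1983 normalised read counts in PBS and at 1741, 1581, 1874 and 1836 in VEGF-C, a log2 difference of -0.11 ± 0.12 (SE). Stat5b (ENSMUSG00000020919) stood at 4153, 4255, 3420 and 4623 in PBS and at 4926, 4256, 4984 and 5282 in VEGF-C, a log2 difference of 0.25 ± 0.10 (SE). In both genes the groups overlapped, in Stat5b through VEGF-C replicate 2. Of the 50-base windows in Stat5a transcripts, 8.21% also occur in Stat5b, and 11.0% of those of Stat5b occur in Stat5a, and the sources used here do not say how reads that match both genes were counted. Without PBS replicate 1 the difference was -0.01 ± 0.11 for Stat5a and 0.25 ± 0.11 for Stat5b. With library totals it was -0.30 for Stat5a and 0.05 for Stat5b. Of the summed level of the 4 STAT genes per kb, Stat3 gave 60.5% ± 1.87 in PBS and 60.1% ± 1.76 in VEGF-C (SD, n = 4).

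The feedback genes had the widest spread among the PBS animals, and their difference between the groups came down to 1 library. Socs3 (ENSMUSG00000053113), which inhibits gp130 signalling and whose promoter is shown above, stood at 4718, 1739, 2175 and 2537 normalised read counts in PBS and at 2557, 2647, 1583 and 2093 in VEGF-C. PBS replicate 1 was 2.19 times the mean of the other 3 PBS libraries, and those 3 lay among the VEGF-C values. The log2 difference was -0.25 ± 0.28 (SE) with all libraries and 0.03 ± 0.18 without PBS replicate 1.

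Socs1 (ENSMUSG00000038037), which inhibits the interferon-gamma pathway, stood at 490, 143, 189 and 250 normalised read counts in PBS and at 244, 213, 159 and 168 in VEGF-C. PBS replicate 1 was again far above the rest, at 2.53 times the mean of the other 3 PBS libraries. The log2 difference was -0.31 ± 0.33 (SE), and 0.03 ± 0.22 without PBS replicate 1. In 9 of the 10 genes, all but Tyk2, the SD of the log2 values was smaller in VEGF-C than in PBS, as it was in 54.3% of all genes. For Socs1 the SD was 0.75 in PBS and 0.28 in VEGF-C, and for Socs3 0.62 and 0.34.

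**Figure D3:**
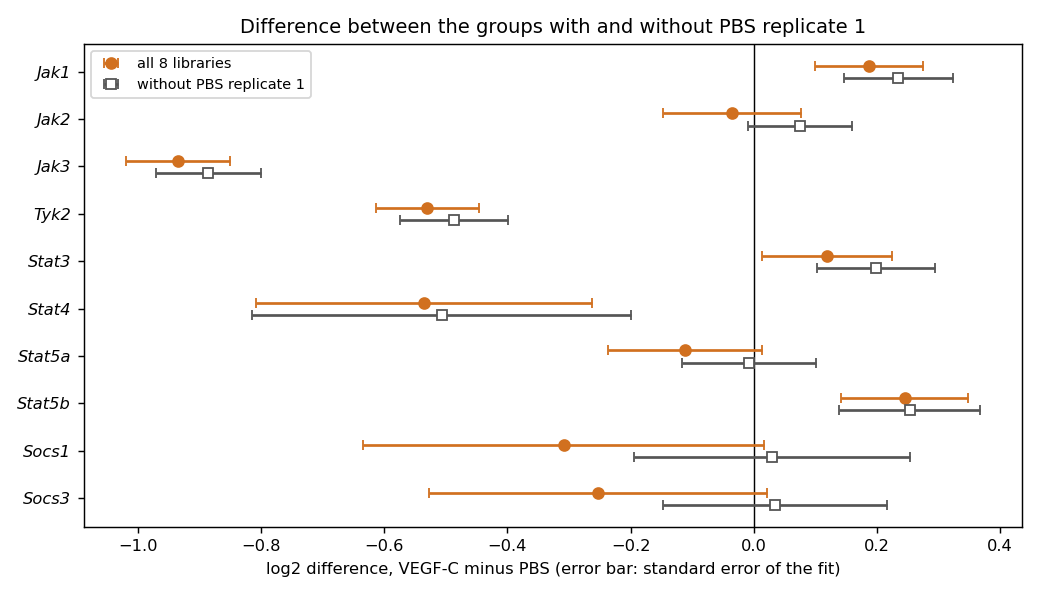
Log2 difference, VEGF-C minus PBS, of the 10 genes with its standard error, from all 8 libraries (orange circles) and without PBS replicate 1 (grey squares). Socs1 moves from -0.31 to 0.03 and Socs3 from -0.25 to 0.03, while Jak3 stays at -0.94 and -0.89.

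Genes whose pattern over the 8 libraries was most like that of 4 of these genes were sought among 13014 genes with a mean of at least 100 normalised counts, after the group means were taken out. The measure was Pearson's correlation, given as a description without a test. The genes nearest to Socs3 were Myd88, the adaptor of Toll-like receptors (0.98), Sbno2 (0.98) and Snai1, a transcriptional repressor (0.97). Those nearest to Socs1 were Mrps10, of the mitochondrial ribosome (0.99), Tgtp1, an interferon-induced GTPase (0.98), and Wars, the tryptophanyl-tRNA synthetase (0.98). For Stat3 they were Atg16l1, of autophagy (0.99), Ap1b1 (0.98) and Usp13 (0.98), and for Stat4 Bax, of apoptosis, Cdk5rap3 and the stress factor Ddit3 (each 0.98). Over the 7 libraries without PBS replicate 1 these correlations were between 0.92 and 0.99. The genes were picked as the highest of 13014 on 8 libraries that include these 7, so this is no separate check. The points share the scaling of each library, and Tgtp1 was at 3.38 times the mean of the other PBS libraries in PBS replicate 1.

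Other genes of the pathway were read from 13 lists of ligands, receptors, inhibitors and target genes, which hold 98 genes beside the 10, of which 93 had values. Of these 93, 22 passed an adjusted p of 0.05 in limma, 8 as higher and 14 as lower in VEGF-C, a share of 23.7% against 15.7% of all genes. The lists too were chosen with earlier results of these data known, so nothing is read from this share. Scaling by library totals left 3 higher and 28 lower, and scaling by upper quartiles 4 and 17. The median log2 difference of the 93 was -0.11. Of the 22 calls, 12 were lost without at least 1 library, and 8 held in every alternative run: Ptpn11, Clcf1, Il21r, Ifnlr1, Csf2ra, Bcl6, Junb and Il18rap. Il9r held in every alternative but the minimum of 1 CPM, under which it was not tested.

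Among the other STAT genes Stat2, a factor of type I interferon signalling, fell. It stood at 5364, 3759, 3918 and 4958 normalised read counts in PBS and at 3144, 3255, 3093 and 3507 in VEGF-C, with no overlap, a log2 difference of -0.45 ± 0.12 (SE; limma adjusted p = 0.0263). Leaving out PBS replicate 4 ended the call, as did leaving out VEGF-C replicate 1, 2 or 3, with a limma adjusted p of at most 0.0713. Stat6, the factor of interleukin-4, was at -0.01 ± 0.08 (limma adjusted p = 0.946).

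With the deposited scaling, all 6 further SOCS family genes had positive log2 differences (median 0.25), and Cish and Socs7 rose. Cish, an inhibitor induced by Stat5, stood at 2178, 2659, 2749 and 1730 normalised read counts in PBS and at 3400, 3500, 3394 and 3506 in VEGF-C. The VEGF-C libraries were above all PBS libraries and nearly level with each other. The log2 difference was 0.59 ± 0.13 (SE; limma adjusted p = 0.0157), and it did not pass with library totals (0.0772). Socs7 rose by 0.35 ± 0.10 (limma adjusted p = 0.0374); of the 8 fits that left out a library, the one without PBS replicate 4 alone kept this call (adjusted p up to 0.0882), and it was lost with upper-quartile factors or library totals (up to 0.227). With library totals 0 of the 6 were called. That scaling moved the median of all genes by -0.19, more than the differences of Socs2 (0.15), Socs4 (0.07) and Socs5 (0.12), so the shared sign depends on the scaling.

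Of 12 other genes listed as inhibitors, 2 fell and 1 rose, and whether each inhibits signalling in these hearts was not tested. Ptpn11, the phosphatase SHP-2, rose from 14302 ± 1680 to 20806 ± 1223 normalised read counts (SD, n = 4; log2 difference 0.55 ± 0.10, limma adjusted p = 0.00551). Ptprc, the phosphatase CD45 of all white blood cells, fell from 4400 ± 1112 to 2732 ± 333 (-0.66 ± 0.16, limma adjusted p = 0.0229), and Ptpn6, the phosphatase SHP-1 of blood cells, from 2839 ± 551 to 2074 ± 147 (-0.44 ± 0.12, limma adjusted p = 0.0367). Leaving out PBS replicate 3 ended both calls. Leaving out VEGF-C replicate 2 or 3 also ended that of Ptprc (limma adjusted p of at most 0.0575), and leaving out any VEGF-C replicate that of Ptpn6 (at most 0.0855).

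Among the ligands of the interleukin-6 family, which signal through gp130 to Stat3, 3 of 6 fell, with a median of -0.89. Clcf1 stood at 800, 503, 543 and 514 normalised read counts in PBS and at 261, 221, 234 and 279 in VEGF-C, a log2 difference of -1.21 ± 0.16 (SE; limma adjusted p = 0.00152). Il6 stood at 457, 309, 187 and 388 in PBS and at 187, 104, 47.1 and 164 in VEGF-C (-1.49 ± 0.41, limma adjusted p = 0.0343), so that the lowest PBS library and the highest VEGF-C library nearly met. Lif stood at 355, 143, 109 and 158 in PBS and at 67.9, 75.3, 49.3 and 102 in VEGF-C (-1.23 ± 0.34, limma adjusted p = 0.0381). PBS replicate 1 was the highest library in all 3 ligands. The call of Il6 ended when PBS replicate 1, 2 or 4 was left out, or VEGF-C replicate 2 or 3 (at most 0.0778 as limma adjusted p), and with a robust variance fit (0.0545). That of Lif ended when PBS replicate 2 or 4 was left out, or VEGF-C replicate 1, 2 or 3 (at most 0.0996), and with limma-voom (0.0673).

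None of the 7 receptors of this family passed in limma (0 at an unadjusted p under 0.05 and 0 with limma-voom; 2 as lower with library totals), and their median was -0.03, or 0.13 without PBS replicate 1. The shared chain gp130, Il6st, was at 18489 ± 586 normalised read counts in PBS and 20352 ± 900 in VEGF-C (SD, n = 4; log2 difference 0.14 ± 0.07, limma adjusted p = 0.192). The other log2 differences were -0.18 ± 0.10 for Il6ra, -0.07 ± 0.10 for Il11ra1, 0.12 ± 0.10 for Lifr, -0.03 ± 0.15 for Osmr, 0.06 ± 0.20 for Cntfr and -0.22 ± 0.10 for Il27ra. The difference between the lists of ligands and receptors was not tested.

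Jak3 pairs with the common gamma chain, and 2 of the 8 receptor genes of that group fell. All 8 log2 differences were negative (median -0.28), but without PBS replicate 1 only 6 were, with a median of -0.07, while Il4ra (0.08) and Il15ra (0.06) were positive. Il9r fell from 99.4 ± 30.5 to 17.9 ± 8.85 normalised read counts (SD, n = 4; -2.28 ± 0.34, limma adjusted p = 0.00273) and Il21r from 728 ± 132 to 447 ± 75.0 (-0.70 ± 0.15, limma adjusted p = 0.0146). The chain itself, Il2rg, was at -0.23 ± 0.14 (limma adjusted p = 0.281), a smaller difference than that of Jak3, with no test between the genes. Of the cytokines of this group, 3 of 6 had values and 0 passed in limma (0 at an unadjusted p under 0.05, 0 with limma-voom and 1 as lower with library totals).

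Of 7 interferon and interleukin-10 family receptors with values, Ifnlr1, the interferon-lambda receptor, fell from 431 ± 27.7 to 295 ± 32.3 normalised read counts (SD, n = 4; -0.54 ± 0.12, limma adjusted p = 0.0136). Only this 1 of the 7 passed in limma, and the median was -0.11. In the same list 3 lay at an unadjusted p under 0.05. With library totals 3 passed as lower, as did 3 by the authors' adjusted p-values. Of 5 measured interleukin-12 and interleukin-23 genes, whose receptors use Tyk2, 0 passed in limma (1 at an unadjusted p under 0.05, 0 with limma-voom, 1 as lower with library totals), with a median of -0.56. That median rests on low counts: the 5 genes together summed to 152 to 270 normalised read counts in PBS and 126 to 154 in VEGF-C. In the list of Stat4 and T helper 1 genes 2 of 6 fell, both chains of the interleukin-18 receptor: Il18rap from 635 ± 253 to 293 ± 39.7 (-1.04 ± 0.23, limma adjusted p = 0.0165) and Il18r1 from 619 ± 143 to 339 ± 140 (-0.91 ± 0.25, limma adjusted p = 0.0339). The call of Il18r1 ended when PBS replicate 2 or 3 was left out, or VEGF-C replicate 1, 3 or 4 (at most 0.0891 as limma adjusted p).

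Of 11 receptors of the growth hormone type and of the beta common family, which signal mainly through Jak2, 2 fell and 2 rose, Ghr among the latter. Of the 11 log2 differences 8 were negative, with a median of -0.40, and with library totals 1 gene was higher and 5 lower. Csf2ra, the GM-CSF receptor alpha chain, stood at 2568, 2058, 2162 and 2184 normalised read counts in PBS and at 1032, 1066, 846 and 869 in VEGF-C (-1.23 ± 0.10 SE, limma adjusted p = 0.000145). Csf3r, the G-CSF receptor, fell by 0.78 ± 0.21 (limma adjusted p = 0.0316), and Ghr, the growth hormone receptor, rose by 0.32 ± 0.10 (limma adjusted p = 0.0470). The call of Csf3r ended when PBS replicate 3 or any VEGF-C replicate was left out (at most 0.0839 as limma adjusted p). That of Ghr ended without PBS replicate 2 or 3, and without VEGF-C replicate 1, 3 or 4 (at most 0.127). Ghr also did not pass with limma-voom or any other scaling (up to 0.341), nor Csf3r with a robust variance fit (0.0538).

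Known Stat3 target genes did not move in 1 direction: of 17, 3 rose and 1 fell, with a median of -0.04, or 0.11 without PBS replicate 1; with library totals 1 was higher and 4 lower. Bcl6, a transcriptional repressor that Stat3 and Stat5 both regulate, stood at 2140, 1287, 1498 and 2279 normalised read counts in PBS and at 2938, 2957, 3880 and 3089 in VEGF-C (0.87 ± 0.18 SE, limma adjusted p = 0.0114). Junb, an AP-1 factor, stood at 7272, 7904, 5167 and 3739 in PBS and at 3242, 3333, 2852 and 2677 in VEGF-C (-0.94 ± 0.20, limma adjusted p = 0.0148). Bcl2l1, an inhibitor of apoptosis, rose by 0.45 ± 0.12 (limma adjusted p = 0.0316) and the cyclin gene Ccnd1 by 0.51 ± 0.15 (0.0495). The call of Bcl2l1 ended when PBS replicate 2 or 4 was left out, or VEGF-C replicate 1, 2 or 3 (at most 0.0826 as limma adjusted p). That of Ccnd1 was kept only in the fits without PBS replicate 2 and without VEGF-C replicate 2 (at most 0.125 in the others). Bcl2l1 also did not pass with upper-quartile factors or library totals (up to 0.175), nor Ccnd1 with any other scaling, with an offset of 1 or with limma-voom (up to 0.173). Of 7 Stat5 target genes, 2 rose, Cish and Bcl6, with a median of 0.15, or 0.08 without PBS replicate 1; with library totals 1 was higher and 1 lower.

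**Figure D4:**
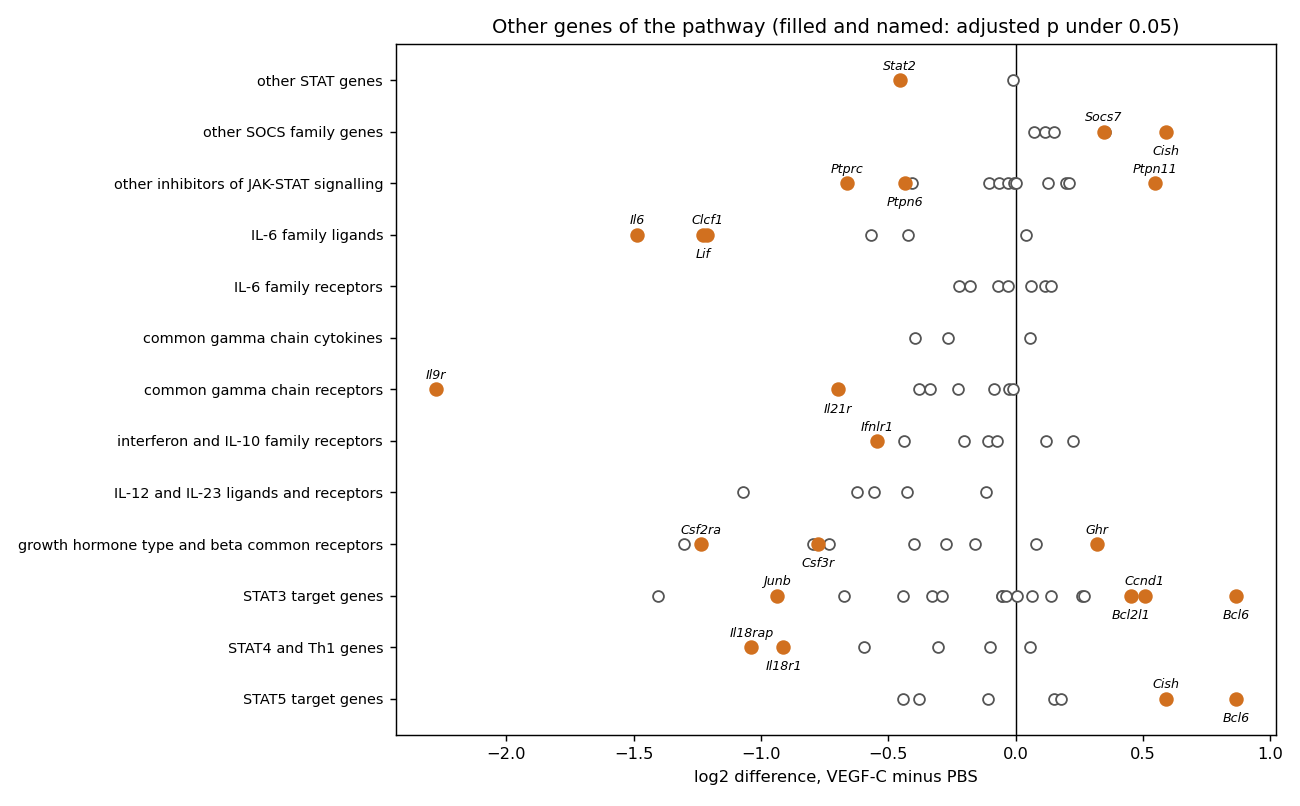
Log2 difference, VEGF-C minus PBS, of measured genes in the 13 pathway lists; filled and named points passed an adjusted p of 0.05 in limma, open points did not. The ligands of the interleukin-6 family reach -1.49, while their receptors lie between -0.22 and 0.14.

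Markers of blood cells were read beside Jak3, Tyk2 and Stat4. Of 6 B cell markers 4 fell, among them Cd22 (-1.04 ± 0.19, limma adjusted p = 0.00667), and their summed normalised counts were 2688 to 4542 in PBS and 706 to 1847 in VEGF-C. Of 8 T cell markers 0 passed in limma (1 at an unadjusted p under 0.05, 0 with limma-voom), and their sums were 2948 to 4249 in PBS and 2975 to 4165 in VEGF-C. Of 6 NK cell markers 0 passed (2 at an unadjusted p under 0.05, 0 with limma-voom, 2 by the authors' adjusted p-values), with sums of 599 to 1205 and 465 to 769. The log2 differences of 5 of these 6 were negative, with a median of -0.29, or -0.15 without PBS replicate 1. Of 8 macrophage markers 0 passed (1 at an unadjusted p under 0.05, 0 with limma-voom), with sums of 70601 to 84996 and 68722 to 83956. Of 6 neutrophil markers 2 fell, Csf3r and Mmp9 (-0.91 ± 0.20, limma adjusted p = 0.0149), with sums of 16825 to 42104 and 10606 to 32302. No marker of these lists was at 0 in any library. The part of these cell types in the differences of Jak3, Tyk2 and Stat4 was not tested.

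Among tissue cells, 0 of 8 cardiomyocyte markers passed in limma (3 at an unadjusted p under 0.05, 2 with limma-voom, 4 by the authors' adjusted p-values, 0 with library totals), with summed normalised counts of 2650304 to 3550550 in PBS and 3573889 to 3964103 in VEGF-C. Of 6 fibroblast markers the collagen gene Col1a1 rose (0.70 ± 0.14, limma adjusted p = 0.00926), with sums of 307772 to 434978 and 464573 to 548959. Of 6 blood endothelial markers Egfl7 fell (-0.92 ± 0.14, limma adjusted p = 0.00319), while the other 5 had positive differences that did not pass (0.02 to 0.33), with sums over the 6 of 66423 to 78641 and 68584 to 82151. Of 6 lymphatic endothelial markers Flt4, the receptor VEGFR-3, rose by 0.40 ± 0.12 (limma adjusted p = 0.0482), with sums of 13957 to 21840 and 15973 to 28737. Of the fits that left out a library, those without PBS replicate 3 and without VEGF-C replicate 4 kept the call of Flt4 (at most 0.118 as limma adjusted p in the others), and it was lost with limma-voom and any other scaling (at most 0.267). With the deposited scaling, the sums of cardiomyocyte markers and those of fibroblast markers did not overlap between the groups. Taken as shares of the library totals, both overlapped. Without Col1a1 the other 5 fibroblast markers summed to 185096 to 270533 in PBS and 232569 to 294555 in VEGF-C with the deposited scaling, which overlap. Pdgfra (-0.20 ± 0.09) and Dcn (-0.12 ± 0.15) had negative differences. The part of these markers in the values of the 10 genes was not tested.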

How the data were processed

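Libraries were made from heart RNA (RIN over 8.0) with a stranded kit for mRNA, per the labels' protocols. The submitters' processing notes name DESeq2 1.38.3, Subread 2.0.1, featureCounts, STAR 2.7.10a, Trim Galore 0.6.10 and build GRCm39. The annotation, the strand setting and the filter rule are not stated in those notes as given here. Of 56941 genes in the deposited table, 18835 have values. The deposited values are log2(x + 4), x being reads over a factor for each library, as found from the values: 100% of values under 50000 came out as whole reads (tolerance 0.01), and the factors equalled median-of-ratios size factors. Normalised read counts in the text are x. The authors' log2 fold change and adjusted p-value are in the same deposited table.

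The 10 genes and all lists were chosen with earlier results of these data known. limma 3.58.1 (R 4.3.3), with a variance trend and 6 residual degrees of freedom, was fitted to all 18835 genes, with treatment as the only term, Benjamini-Hochberg adjustment and a threshold of 0.05, two-sided. It was tested on simulated data. On the log2(x + 4) scale the change of low genes is understated. The labels give each sample its own number, read here as 1 animal each. The p-values set the difference between the groups against the spread between these samples within the groups. Exon lengths, overlaps and shared windows came from GENCODE M21 by gene ID (98.05% matched), whose build differs from the authors', and promoters from RefSeq. Named were the 10 genes, called genes of the pathway lists (up to 4 a list), genes of the lists of other STAT genes and of interleukin-6 family receptors, up to 2 called markers a list and 3 genes of most similar pattern for 4 of the 10; other genes were named after their values were seen. Some genes that this rule takes count in their lists but are not reported here or drawn. Alternatives were other scalings, offsets of 1 and 16, a minimum of 1 CPM, limma-voom, a robust variance fit, the authors' adjusted p-values and leaving out each library.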

Additional observations from a re-analysis of the deposited data

Results flagged for a closer look

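Stat4 in VEGF-C replicate 1 stood at 76.3 normalised read counts, against 46.4 to 49.4 in the other 3 VEGF-C libraries. Its gap to the nearest of them was 0.90 of the range of the group, above Dixon's 95% critical value for a group of 4. It was the only flag in 20 groups of 4 examined, and chance flags about 1 in 20. Socs1 and Socs3 in PBS replicate 1 did not reach that value.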

How the results depend on the processing

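Jak3 and Tyk2 were the 2 of the 10 genes called, both as lower, in each of the 17 alternatives run. Over the 9 settings that kept all libraries, the authors' deposited table among them, their log2 differences ran from -1.13 to -0.93 and from -0.72 to -0.53, and over the fits that left out 1 library from -0.99 to -0.89 and from -0.58 to -0.48. The sign of Jak1 (-0.01) and Stat3 (-0.07) changed with library totals, and that of Jak2 (0.08), Socs1 (0.03) and Socs3 (0.03) without PBS replicate 1; the signs of the other 5 genes held in the alternatives run. With library totals 9 of the 10 differences were negative, against 7, and without PBS replicate 1 the number was 4. The number of genes called over the whole table was 2949, 1328 higher and 1621 lower; leaving out 1 library gave 1684 to 2906, with 1684 without VEGF-C replicate 3 and 1956 without VEGF-C replicate 1. Library totals gave 243 higher and 3572 lower, upper-quartile factors 797 and 1920, and the adjusted p-values in the authors' deposited table gave 1927 and 2148 (4075 in all). Of the genes in the pathway and marker lists 30 were called, and 15 to 28 without 1 library, the lowest without VEGF-C replicate 3, while library totals gave 44 (4 higher and 40 lower) and the adjusted p-values in the authors' deposited table gave 42; the cause was not tested. With coding length, an alternative chosen after seeing the data, 5 of the 10 genes changed place in the order of levels. The planned edgeR and DESeq2 fits were not run, and limma-voom was the only count-based fit to the recovered reads; nor was the order by RefSeq protein length, which is not used here. No paired analysis was possible because the animal numbers in the labels are not shared between the groups and the column numbers tie to no animal. Among the 10 genes depth limits Stat4 most, at 38 reads in the lowest library. Some genes of the pathway lists were lower still, such as Il9r at 8.84 normalised read counts in VEGF-C replicate 4.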
